A study of Homo sapiens with 120 samples.

Results

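The 48 genes described here encode RNA polymerase I, its initiation factors and the proteins that turn its transcript into ribosomal subunits. They were taken by gene name from a list, and all 48 were among the 57665 genes of the deposited tables. They were measured by RNA-seq in U2OS, a human osteosarcoma cell line, in 2 forms. Parental cells carried no construct. Dmr-PERK cells stably expressed a fusion of the kinase domain of mouse PERK, which phosphorylates eIF2α, with the DmrB dimerization domain. Each line was left untreated (0, 4, 8, 16 and 24 h) or was treated for 2, 4, 8, 16 or 24 h with 1 of 3 agents. These were the ligand AP20187, called dimerizer here (about 0.2 nM), thapsigargin (100 nM) or arsenite (0.05 mM). Dimerizer brings the fusion proteins together and so switches on the integrated stress response directly. Thapsigargin empties the calcium store of the endoplasmic reticulum, and arsenite causes oxidative and protein damage, so both act on more than this pathway. Each of the 40 groups held 3 libraries, 120 in all. The labels do not say whether Dmr-PERK is 1 clone or whether the 3 wells of a group were separate cultures, so p-values measure the spread between wells.

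Ribosomes are assembled in the nucleolus. RNA polymerase I, brought to the ribosomal DNA by UBTF, the SL1 complex and RRN3, makes a long precursor that holds the 18S, 5.8S and 28S RNAs. Small nucleolar ribonucleoproteins (snoRNPs) modify that precursor, and large assemblies of helicases, nucleases, methyltransferases and scaffold proteins cut and fold it into the 40S and 60S subunits. Genes of this programme are known for moving together with cell growth, and MYC is known to activate many of them through the E-box hexamer CACGTG. In the integrated stress response, phosphorylated eIF2α lowers protein synthesis while ATF4 and its target genes are made.

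Promoter sequences of RefSeq (GRCh38.p14), from 250 bases before to 50 after the annotated start, were matched by symbol for 40 of the 48 genes. The E-box is printed because it was the most frequent of 5 motifs searched in them. CACGTG, which is its own reverse complement, was found in 12 of the 40 promoters (30%), against 7.26% of all 35116 promoters and 8.68% of the 19473 promoters of tested genes. In 11 of the 40 (27.5%) it lay within 50 bases of the start, against 2.82% of all promoters and 3.40% of those of tested genes; this narrower window was chosen after the matches were seen. The 13 matches stand below in 30-base windows, 5′ to 3′ on the gene's strand, with the hexamer in capitals.
FBL: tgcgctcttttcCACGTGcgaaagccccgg (chr19:39846356-39846385, minus strand)
NOP10: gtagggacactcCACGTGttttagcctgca (chr15:34343289-34343318, minus strand)
NOP10: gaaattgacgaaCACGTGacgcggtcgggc (chr15:34343130-34343159, minus strand)
WDR43: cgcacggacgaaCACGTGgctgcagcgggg (chr2:28894658-28894687, plus strand)
UTP14A: accttgggcCACGTGgaaaccaggggccag (chrX:129905914-129905943, plus strand)
UTP20: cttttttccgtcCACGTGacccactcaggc (chr12:101280083-101280112, plus strand)
RRP9: gggttcagctgcCACGTGagttctgcggcc (chr3:51941892-51941921, minus strand)
NOP14: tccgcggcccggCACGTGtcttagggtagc (chr4:2963374-2963403, minus strand)
BYSL: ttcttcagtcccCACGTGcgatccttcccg (chr6:41921515-41921544, plus strand)
LTV1: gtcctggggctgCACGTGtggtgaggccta (chr6:143843354-143843383, plus strand)
PES1: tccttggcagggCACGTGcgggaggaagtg (chr22:30591880-30591909, minus strand)
NOP2: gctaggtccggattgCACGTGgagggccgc (chr12:6568242-6568271, minus strand)
MYBBP1A: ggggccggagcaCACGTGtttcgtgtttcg (chr17:4555340-4555369, minus strand)

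All the matches but the upstream one of NOP10 and that of UTP14A began between 11 bases before and 36 bases after the start. The ETS-type motif CCGGAAGT, searched on both strands, was in 7 of the 40 promoters (17.5%) and in 4.14% of all promoters. The palindromic NRF1 motif, which reads the same on both strands, was in 4 (10.0%, against 1.24%), the palindromic BANP motif in 1 (2.50%, against 0.424%), and TGATGNAA, the core of sites bound by ATF4, searched on both strands, in 0 (against 3.62%). Among promoters of tested genes these other motifs were in 5.81%, 1.62%, 0.57% and 2.38%, in the same order. With 40 promoters and a share this low, 0 matches of the last motif are not read as a lack. A match describes letters, not a bound site. The 12 genes with CACGTG and the 28 without it had median effects of dimerizer that lay close together (log2 fold changes of 0.47 and 0.48) and of thapsigargin (0.37 and 0.34). Under arsenite their medians were -0.48 and -0.70, and the range of each set held the median of the other.

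Library totals ran from 12869311 to 56504690 estimated counts, with a median of 22323606. The osteoblast-lineage genes SPARC, COL1A1 and RUNX2 had median levels of 1355, 406 and 13.2 TPM over the 120 libraries, whereas SP7 and IBSP were at the floor of the deposited values (0.0631 TPM) in the median library. ALPL, BGLAP and COL1A2 had medians of 9.55, 1.28 and 0.277 TPM. Epithelial markers were detected too, with medians from 0.599 (ESRP1) to 4.51 TPM (KRT14) and a highest single value of 17.0 TPM (KRT14). None of the 6 blood-cell markers exceeded 5 TPM in any library. Replicate 3 of Parental arsenite at 24 h stood apart from its group: the SD of its log2 deviations was 0.319, against a median of 0.102 over all libraries. Replicate 3 of Dmr-PERK arsenite at 4 h also differed from its group: mitochondrial genes took 2.72% of its counts, against 4.72% and 4.56% in the other libraries, and its log2 deviations had an SD of 0.148. Results that use these groups are given with and without that library where it mattered.

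The 48 genes were abundant in untreated cells. On the per-length TPM scale their median was 63.0 in Dmr-PERK and 58.9 in Parental cells, against 3.24 and 3.52 for all tested genes. NPM1, a nucleolar histone chaperone, was at the top with 2159.8 ± 268 TPM (SD, n = 15 libraries) in Dmr-PERK cells, followed by NCL (nucleolin) with 536 ± 60.01 TPM (SD, n = 15 libraries) and NOP56 with 328 ± 40.9 TPM (SD, n = 15 libraries). The lowest was UTP20, a large scaffold of the small-subunit processome, with 10.8 ± 2.88 TPM (SD, n = 15 libraries). Over the 15 untreated libraries of each line, 29 of the 48 were higher in Dmr-PERK and 9 lower (edgeR, adjusted p under 0.05; 30.3% and 32.2% of all 26998 tested genes), with a median log2 difference of 0.10. The highest were PES1 (0.45), WDR12 (0.41) and NOP16 (0.39), and the lowest were FBL (-0.70), NCL (-0.53) and WDR43 (-0.35). Transcripts of FBL, the methyltransferase of box C/D snoRNPs, and of NCL were therefore less abundant in the engineered line before any treatment.

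In Dmr-PERK cells dimerizer raised almost all of these genes and arsenite lowered most of them. The set was chosen with this opposite movement of the means already seen, so the counts describe it and are no independent test. Averaged over 4 to 24 h against untreated wells of the same times, 46 of the 48 genes were higher and 1 lower with dimerizer, against 27.5% and 27.7% of all tested genes; the median log2 fold change was 0.46, and that of all genes -0.03. With thapsigargin 37 of the 48 genes were higher and 7 lower (30.9% and 32.2% of all genes), with a median of 0.31 against 0. With arsenite 7 of the 48 genes were higher and 40 lower (44.4% and 39.2% of all genes), with a median of -0.58 against 0.12. The 3 comparisons share the same untreated wells. Changes were moderate: with dimerizer 0 genes passed a 2-fold change of the mean, with arsenite 12 fell by more than 2-fold and 1, RRN3, rose by more. The share of all genes past that size was not counted, so these counts are not read as particular to the 48 genes. The size of the arsenite effect depends on the scaling: the median of all genes was 0.12 with TMM, 0.22 with DESeq2's size factors (RLE) and -0.07 with library totals alone, and the median of the 48 genes was -0.58, -0.47 and -0.77, so that the difference between these medians was -0.70 in each case. The values are shares of a library, so fewer cells and less RNA per cell cannot be told apart, and a change in total RNA per cell would not show.

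In Parental cells, which lack the construct, dimerizer changed none of the 48 in the mean of 4 to 24 h (0 by edgeR, against 0.582% of all genes; median log2 fold change -0.0047). At an unadjusted p under 0.05, 1 gene passed in that mean, and DESeq2 called 0. The single times gave 0 calls at 2, 8, 16 and 24 h by edgeR and by DESeq2 (1, 1, 3 and 7 genes at an unadjusted p under 0.05 in edgeR). Of all genes, 0.0444% were called higher and 0.133% lower at 2 h and 0% at the later 3 of these times. At 4 h 2 genes were higher and 6 lower, against 3.78% and 3.73% of all genes; those higher were DDX10 (0.22) and POLR1A (0.13), and the lowest were NIP7 (-0.22), UTP15 (-0.19) and WDR43 (-0.19). Without replicate 1 or without replicate 2 of each group, 1 gene was called lower at that time. The difference of the dimerizer effect between the lines was itself called for 45 genes upward and 1 downward (23.7% and 23.2% of all genes), with a median of 0.47. It was largest for RRP12 (0.89), RRP9 (0.87) and WDR43 (0.84), and the gene with a lower effect was UBTF (-0.09).

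**Figure D1:**
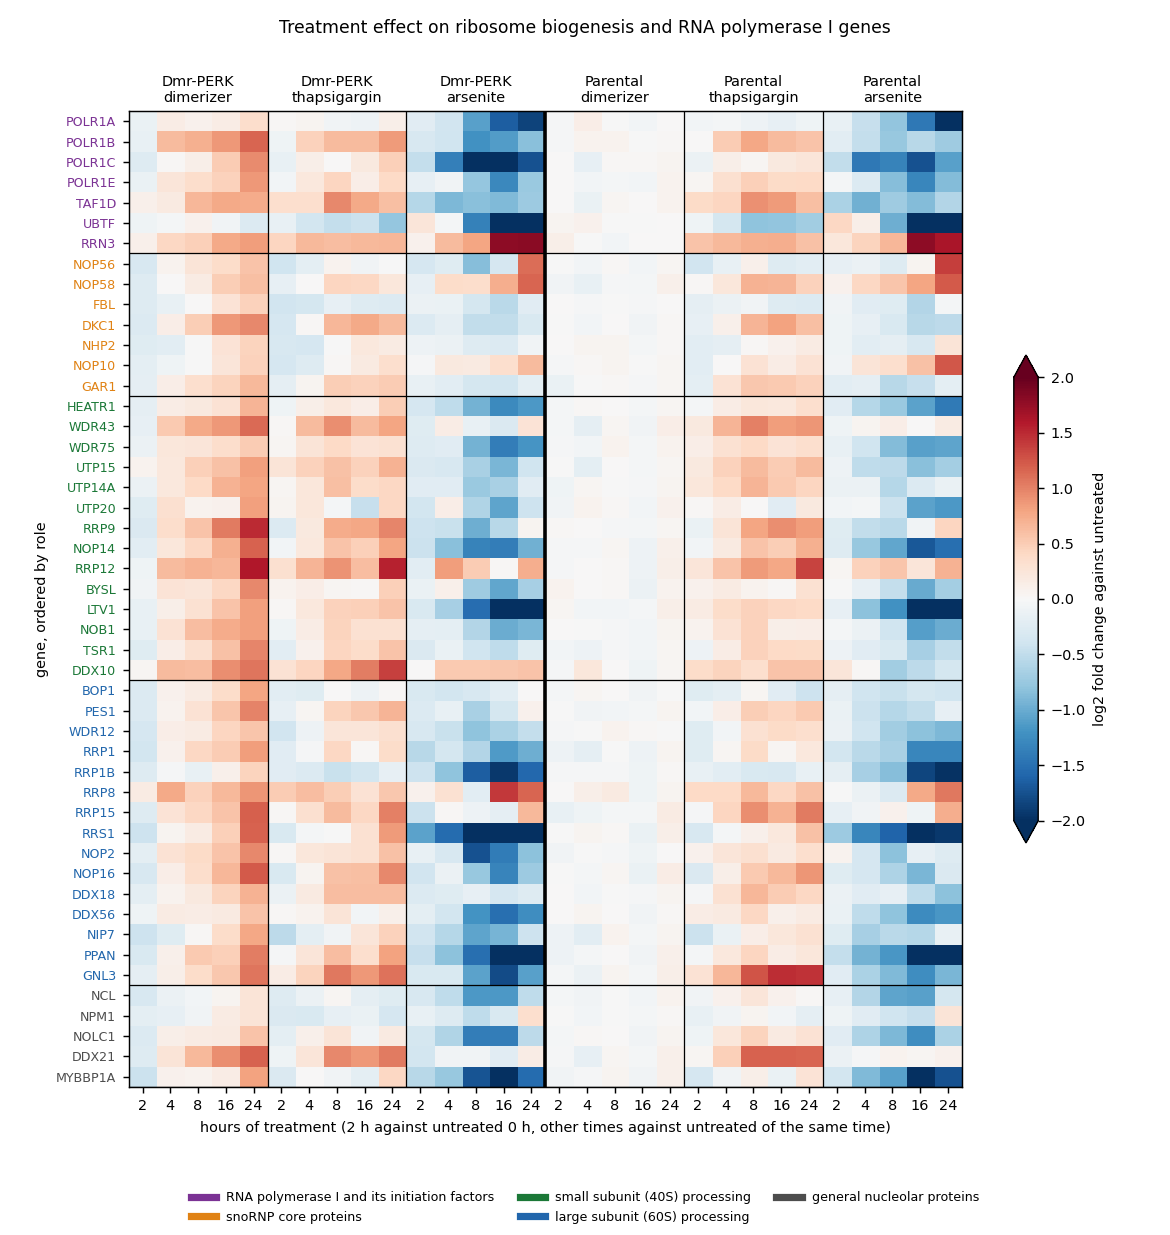
Log2 fold change against untreated (colour, cut at -2 and 2) of the 48 genes (rows, ordered and coloured by role) for each line, agent and hour of treatment (columns; 3 libraries a group). Dimerizer columns turn from pale blue at 2 h to red at 24 h in Dmr-PERK cells and stay near white in Parental cells, while most arsenite rows are blue from 8 h on in both lines, with RRN3 in red.

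The difference between dimerizer and untreated wells grew with time. The treated wells of 2 h were compared with untreated wells of 0 h. At 2 h 0 were higher and 36 lower (8.53% and 9.13% of all genes; median -0.20), with the lowest MYBBP1A (-0.43), RRS1 (-0.42) and NIP7 (-0.41). The 2 h count rested on replicate 2, without which 15 genes were lower, and on the reference: against untreated wells of 4 h, a comparison added after these values were seen, 45 were lower in Dmr-PERK and 42 in Parental wells. Shares of all genes against that added reference are not given here. At 4 h 27 were higher and 4 lower (15.5% and 14.6% of all genes; median 0.13), with the highest RRP8 (0.76), RRP12 (0.64) and DDX10 (0.63) and the lowest NIP7 (-0.25), NHP2 (-0.21) and NPM1 (-0.17). The direction against these references was thus opposite at 2 and 4 h, and those higher at 4 h held 13 of the 14 small-subunit factors and 5 of the 7 polymerase I genes, but 6 of the 15 large-subunit factors and 1 of the 7 snoRNP proteins. At 8 h 37 were higher and 1 lower (19.9% and 17.1% of all genes; median 0.29), with the highest WDR43 (0.77), POLR1B (0.72) and RRP12 (0.70) and the lowest RRP1B (-0.15). At 16 h 43 were higher and 0 lower (22.5% and 20.6% of all genes; median 0.49), with the highest RRP9 (1.03), DDX10 (0.92) and DDX21 (0.92). No gene was called lower at that time. At 24 h 47 were higher and 1 lower (25.0% and 23.1% of all genes; median 0.82), with the highest RRP12 (1.61), RRP9 (1.50) and NOP16 (1.22) and the lowest UBTF (-0.27). At 24 h 12 genes were more than 2-fold higher. As the share of all genes past that size was not counted, this count is not read as particular to the 48. The effect changed between 4 and 24 h for all 48 genes by edgeR's F-test over the 4 times (42.1% of all genes), and for 47 of them the largest effect in size was that at 24 h. At each of the 4 times 26 of the genes were higher, among them POLR1A, POLR1B, POLR1E, TAF1D and RRN3. At most 15.5% of all genes, the share called higher at 4 h, can have been higher at each of these times.

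The reference itself moved. In untreated Dmr-PERK wells 38 of the 48 rose from 0 to 4 h and 0 fell (8.66% and 8.85% of all genes; median 0.24), led by RRP1B (0.39), RRP12 (0.39) and RRP1 (0.39); by limma on log2(TPM + 0.1) 24 rose. From 4 to 24 h 3 rose and 40 fell (18.3% and 19.6%; median -0.52), with the largest falls for DDX21 (-1.10), RRS1 (-1.05) and NIP7 (-0.996); those that rose were UBTF (0.25), FBL (0.18) and NPM1 (0.12). Untreated Parental wells moved likewise, with 39 up and 0 down to 4 h (10.4% and 9.15%; median 0.26), or 22 up by limma on either TPM scale. From there to 24 h 2 rose and 41 fell (19.2% and 20.4%; median -0.45). A comparison within the treated wells was added after these values were seen. In dimerizer wells of Dmr-PERK cells 20 genes rose and 6 fell between 4 and 24 h (21.9% and 20.7% of all genes), with a median of 0.08; those that rose most were FBL (0.79), NHP2 (0.78) and BOP1 (0.62), and those that fell most were WDR43 (-0.33), RRP1 (-0.21) and DDX21 (-0.17). On the log2(TPM + 1) scale (limma) 11 rose and 9 fell, and the median was -0.03.

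The other treated wells fell over the same interval. In thapsigargin wells of Dmr-PERK cells 12 genes rose and 30 fell (26.1% and 28.0% of all genes; median -0.19), and in arsenite wells 8 rose and 38 fell (39.1% and 37.4%; median -0.83). Parental wells given dimerizer lost these transcripts as untreated ones did, with 2 up and 41 down (14.3% and 15.8%; median -0.37). In Parental cells the medians were -0.33 in thapsigargin wells (5 up, 33 down; 25.2% and 28.3%) and -0.74 in arsenite wells (9 up, 38 down; 38.8% and 37.2%). Within treated wells alone, time in culture and time in treatment run together and cannot be told apart. Untreated wells of the same times, which had time in culture only, had medians of -0.52 in Dmr-PERK and -0.45 in Parental cells. The plot of levels relative to the 0 h wells shows the untreated fall and the Dmr-PERK dimerizer course side by side. The dimerizer course was not flat. Summed over the 48 genes, its 3 libraries held 7857, 7654 and 7952 CPM at 4 h. They held 9753, 9993 and 9858 at 16 h, and 8950, 9001 and 8891 at 24 h.

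**Figure D2:**
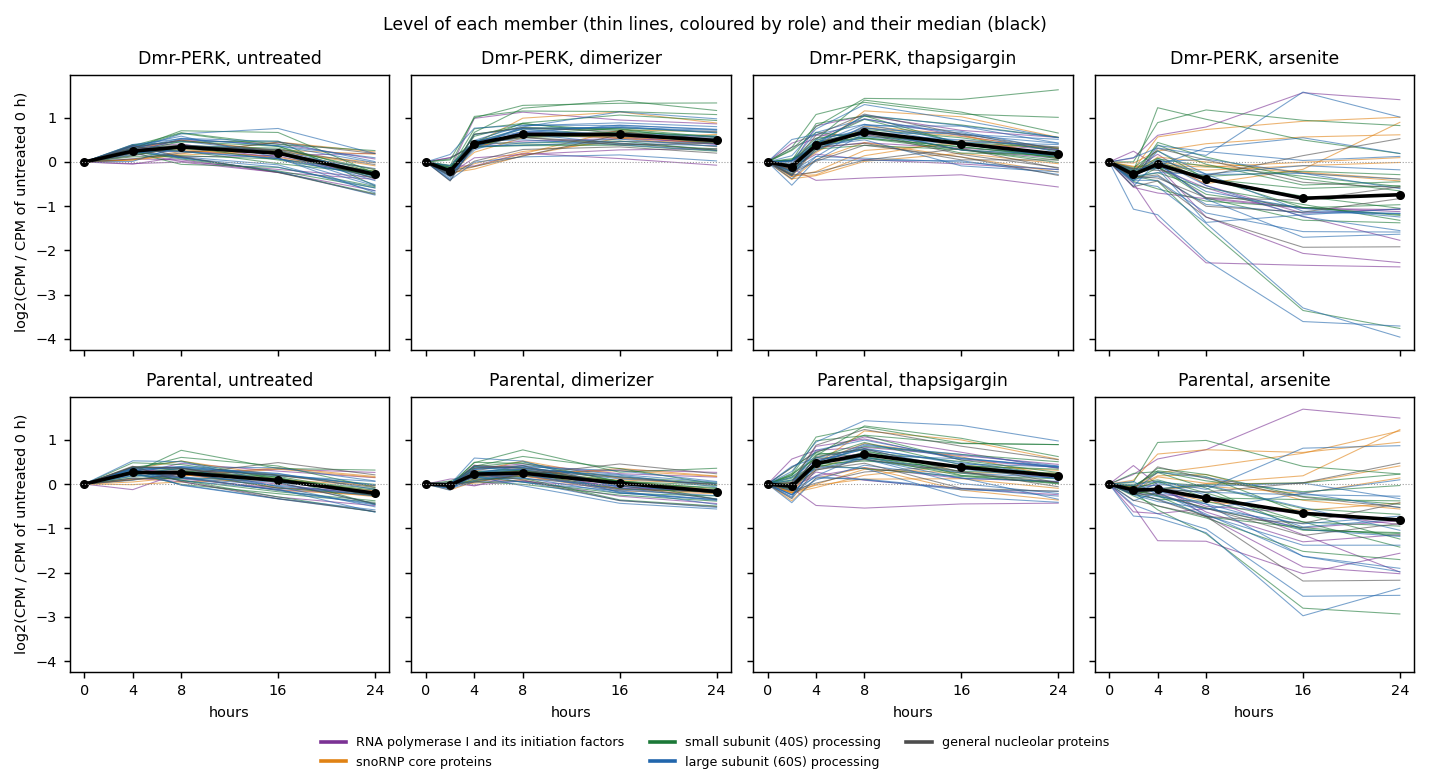
Log2 ratio of mean CPM to that of untreated 0 h wells of the same line (y) by hour (x) for each of the 48 genes (thin lines, coloured by role) and their median (black), 3 libraries a point. Untreated and Parental dimerizer medians rise to 4 h and end below 0 at 24 h, the Dmr-PERK dimerizer median stays above 0 from 4 h on, and under arsenite the medians fall while single genes spread from under -3 to over 1.

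Among RNA polymerase I and its initiation factors, 6 of the 7 rose and 1 fell with dimerizer (median 0.48), 5 rose and 1 fell with thapsigargin (0.29), and 1 rose and 6 fell with arsenite (-0.89). Of all tested genes, 27.5% rose and 27.7% fell with dimerizer, 30.9% and 32.2% with thapsigargin, and 44.4% and 39.2% with arsenite. Levels are given below as CPM (counts scaled to a common library size) in the 3 libraries of a group at 24 h, and effects as log2 fold changes of the mean over 4 to 24 h. POLR1B, the second largest subunit, was at 63.5, 61.5 and 64.0 CPM in untreated Dmr-PERK wells, 141, 144 and 136 with dimerizer, 113, 116 and 111 with thapsigargin and 38.0, 33.8 and 34.7 with arsenite. The 4 groups did not overlap, and its effects were 0.84 ± 0.021 SE, 0.64 ± 0.022 SE and -0.89 ± 0.024 SE in that order (edgeR adjusted p = 1.80e-57 for dimerizer). POLR1A, the largest subunit, held 145, 146 and 148 CPM untreated, 188, 185 and 184 with dimerizer, 161, 157 and 157 with thapsigargin and 42.9, 40.4 and 39.3 with arsenite. Its dimerizer effect was small (0.18), its thapsigargin effect was 0.0024 and not called, and its arsenite effect was -1.24 ± 0.020 SE. The estimates for the 2 large subunits lay far apart under dimerizer relative to their standard errors, and both genes fell with arsenite. POLR1C, a subunit shared with RNA polymerase III, was at 27.5, 27.7 and 27.6 CPM untreated, 48.9, 56.3 and 54.4 with dimerizer and 8.28, 9.11 and 7.67 with arsenite. Its effects were 0.40 and -1.88 ± 0.041 SE.

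The factors that load the polymerase moved apart. UBTF, which binds and opens ribosomal DNA, was at 239, 237 and 241 CPM untreated, 202, 196 and 196 with dimerizer, 143, 146 and 133 with thapsigargin and 43.9, 45.4 and 39.9 with arsenite in Dmr-PERK cells. It was the gene with the lowest dimerizer effect of the 48 (-0.07 ± 0.025 SE, edgeR adjusted p = 0.00735), and it fell with thapsigargin (-0.51) and arsenite (-1.52). RRN3, which joins the polymerase to the promoter-bound factors, was at 28.6, 28.4 and 29.3 CPM untreated, 52.4, 52.3 and 49.0 with dimerizer, 47.1, 47.1 and 43.3 with thapsigargin and 103, 97.3 and 100.2 with arsenite. Every treated group lay above the untreated one, and arsenite gave the largest rise of any of the 48 genes (1.26 ± 0.031 SE, edgeR adjusted p = 7.45e-60), beside 0.62 with dimerizer and 0.64 with thapsigargin. So under arsenite RRN3 rose while UBTF fell, in both lines: in Parental cells RRN3 had 1.13 ± 0.030 SE and UBTF -1.34 ± 0.026 SE. POLR1E, a subunit that helps initiation, and TAF1D, an SL1 subunit, rose with dimerizer (0.48 and 0.59) and fell with arsenite (-0.72 and -0.83). By GENCODE 29 on GRCh38, whose versioned identifiers matched 40 of the 48 genes, these are POLR1A on chr2:86020216-86106155 (minus strand), POLR1B on chr2:112541915-112577150 (plus strand), UBTF on chr17:44205033-44221626 (minus strand) and RRN3 on chr16:15060022-15094317 (minus strand). RRN3 has 2 pseudogene models that are also in the tables, which can share its reads.

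The snoRNP core proteins, which guide and carry out modification of the ribosomal RNA, had smaller median effects. Of these, 7 of the 7 rose and 0 fell with dimerizer (median 0.32), 4 rose and 2 fell with thapsigargin (0.07), and 2 rose and 5 fell with arsenite (-0.18). Shares of all tested genes were 27.5% and 27.7%, 30.9% and 32.2%, and 44.4% and 39.2%, in that order. The falls with thapsigargin lay near that share and are not read as a trait of this group. DKC1, the pseudouridine synthase of box H/ACA snoRNPs, had the largest dimerizer effect: 161, 153 and 165 CPM untreated, 313, 315 and 308 with dimerizer, 255, 257 and 235 with thapsigargin and 129, 128 and 131 with arsenite (0.62, 0.52 and -0.36). Its partners GAR1, NHP2 and NOP10 had dimerizer effects of 0.39, 0.13 and 0.15. NHP2, with the smallest of these, was at 118, 122 and 119 CPM untreated, 155, 165 and 169 with dimerizer, 138, 136 and 127 with thapsigargin and 108, 109 and 124 with arsenite, where untreated and arsenite wells overlapped at this hour. NOP10 rose under arsenite (0.34), in contrast to DKC1, GAR1 and NHP2 (-0.36, -0.28 and -0.18).

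NOP58 and NOP56, the scaffold proteins of box C/D snoRNPs, ended above untreated levels under arsenite. NOP58 was at 155, 141 and 147 CPM untreated, 222, 228 and 224 with dimerizer, 177, 178 and 165 with thapsigargin and 326, 323 and 346 with arsenite, so arsenite wells were the highest (0.65 ± 0.020 SE in the mean of 4 to 24 h). Its partner NOP56 was at 199.8, 187 and 205 CPM untreated, 286, 297 and 292 with dimerizer, 201, 196 and 191 with thapsigargin and 424, 402 and 456 with arsenite. Its arsenite effect changed sign with time, from -0.85 at 8 h and -0.34 at 16 h to 1.12 at 24 h (edgeR adjusted p = 5.07e-43 at 24 h), and its mean over 4 to 24 h was -0.08, or 0.03 with RLE scaling. FBL, the methyltransferase of the same particle, was at 116, 115 and 112 CPM untreated, 152, 159 and 161 with dimerizer, 96.3, 99.9 and 88.8 with thapsigargin and 93.8, 95.7 and 101 with arsenite. It rose a little with dimerizer (0.14) and fell with thapsigargin (-0.26) and arsenite (-0.32). The transcripts of the 3 proteins that share this particle therefore did not move together under arsenite at 24 h.

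Among the small-subunit processing factors, 14 of the 14 rose and 0 fell with dimerizer (median 0.52), 13 rose and 0 fell with thapsigargin (0.42), and 2 rose and 11 fell with arsenite (-0.53). Shares of all tested genes were 27.5% and 27.7%, 30.9% and 32.2%, and 44.4% and 39.2%, in that order. RRP12, needed for maturation and export of the 40S precursor, had the largest dimerizer effect of all 48 genes. It was at 68.2, 62.8 and 67.9 CPM untreated, 206, 197 and 203 with dimerizer, 200.1, 196 and 185 with thapsigargin and 109, 103 and 117 with arsenite. All 3 agents raised it, with effects of 0.90 ± 0.024 SE, 0.93 ± 0.024 SE and 0.53 ± 0.025 SE (edgeR adjusted p = 3.02e-55 for dimerizer). RRP9, a U3 snoRNP protein, and WDR43, a subunit of the early processome, followed with dimerizer effects of 0.86 and 0.82, and arsenite effects of -0.48 and -0.0042, of which the latter was not called and was called higher with RLE scaling (0.11) and on log2(TPM + 1) (0.30). LTV1, an assembly factor of the late 40S precursor, fell furthest: 47.8, 42.4 and 44.6 CPM untreated, 76.4, 81.1 and 81.7 with dimerizer, 66.9, 67.8 and 65.4 with thapsigargin and 5.15, 4.98 and 4.75 with arsenite. Its effects were 0.45, 0.43 and -2.13 ± 0.039 SE.

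UTP20 had the smallest dimerizer effect of the small-subunit factors (0.33). It was at 43.9, 42.5 and 43.5 CPM untreated, 79.5, 77.3 and 72.1 with dimerizer, 59.5, 59.2 and 55.7 with thapsigargin and 36.1, 32.4 and 30.0 with arsenite, and these 4 groups did not overlap. The other subunits of the early processome, HEATR1, WDR75 and UTP15, had dimerizer effects of 0.33, 0.33 and 0.53 and arsenite effects of -0.97, -0.94 and -0.57. For UTP14A, NOP14 and BYSL, which act later in the processome, the dimerizer effects were 0.52, 0.63 and 0.47 and the arsenite effects -0.46, -1.13 and -0.58. NOB1, the nuclease that forms the end of 18S RNA, had 0.62 and -0.68, and TSR1, a GTPase-like factor on the 40S precursor, had 0.51 and -0.32. DDX10, an RNA helicase, rose with dimerizer (0.81), thapsigargin (0.90) and arsenite (0.54) in Dmr-PERK cells.

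Among the large-subunit processing factors, 15 of the 15 rose and 0 fell with dimerizer (median 0.47), 13 rose and 2 fell with thapsigargin (0.34), and 2 rose and 13 fell with arsenite (-0.74). Shares of all tested genes were 27.5% and 27.7%, 30.9% and 32.2%, and 44.4% and 39.2%, in that order. RRP8, a methyltransferase of the 28S RNA, had the largest dimerizer effect of these (0.69 ± 0.031 SE). It was at 16.3, 14.4 and 14.9 CPM untreated, 29.5, 28.1 and 26.9 with dimerizer, 22.3, 22.5 and 21.6 with thapsigargin and 34.4, 33.3 and 34.4 with arsenite, and was highest in arsenite wells. RRS1, which brings the 5S particle into the 60S precursor, showed the deepest fall of all 48 genes under arsenite. It was at 39.8, 35.2 and 39.9 CPM untreated, 88.3, 88.2 and 84.8 with dimerizer, 73.0, 68.4 and 67.0 with thapsigargin and 5.28, 4.31 and 4.65 with arsenite. Its arsenite effect was already -1.07 at 2 h and reached -3.72 at 16 h, with -2.77 ± 0.049 SE in the mean of 4 to 24 h (edgeR adjusted p = 8.70e-72). PPAN, an early 60S factor, followed with -2.22, while its dimerizer effect was 0.53; the readthrough gene PPAN-P2RY11 overlaps it on the same strand and can share its reads.

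RRP1B had the smallest dimerizer effect of the large-subunit factors. It was at 63.4, 62.4 and 61.5 CPM untreated, 90.4, 83.6 and 80.2 with dimerizer, 59.8, 54.1 and 54.0 with thapsigargin and 22.4, 19.9 and 20.9 with arsenite (0.09, -0.31 and -1.49). Its paralog RRP1 had 0.46, 0.20 and -0.76. BOP1, PES1 and WDR12, which form the PeBoW complex, had dimerizer effects of 0.35, 0.47 and 0.32 and arsenite effects of -0.22, -0.27 and -0.59. They differed under thapsigargin, where BOP1 fell (-0.07) and PES1 and WDR12 rose (0.43 and 0.18). GNL3 (nucleostemin), NOP16 and RRP15 rose with dimerizer by 0.53, 0.59 and 0.61, and under arsenite they had -1.06, -0.73 and 0.10, where RRP15 turned to -0.09 with library totals alone. NOP2, a methyltransferase of the 28S RNA, the helicases DDX18 and DDX56, and NIP7 had dimerizer effects of 0.55, 0.35, 0.26 and 0.23. Their arsenite effects were -1.07, -0.25, -1.08 and -0.74.

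The general nucleolar proteins held both small and large dimerizer effects. Of these, 4 of the 5 rose and 0 fell with dimerizer (median 0.26), 2 rose and 2 fell with thapsigargin (0.04), and 0 rose and 5 fell with arsenite (-0.82). Shares of all tested genes were 27.5% and 27.7%, 30.9% and 32.2%, and 44.4% and 39.2%, in that order. The thapsigargin counts lay near those shares and are not read as a trait of this group. DDX21, a helicase that couples transcription by polymerase I to processing, was at 279, 261 and 278 CPM untreated, 636, 629 and 596 with dimerizer, 577, 564 and 533 with thapsigargin and 304, 300.3 and 302 with arsenite. Its effects were 0.75 with dimerizer and 0.77 with thapsigargin, and its arsenite effect was -0.05, which turned to 0.06 with RLE scaling. MYBBP1A, a nucleolar transcription co-regulator, was at 63.6, 55.6 and 62.2 CPM untreated, 111, 102 and 103 with dimerizer, 84.5, 82.8 and 76.2 with thapsigargin and 20.5, 20.3 and 21.6 with arsenite, with effects of 0.27, 0.04 and -1.55. NOLC1, a chaperone of snoRNPs, had 0.26 with dimerizer and -0.97 with arsenite.

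The 2 most abundant genes changed little with dimerizer in the mean of 4 to 24 h. That mean averaged effects of opposite sign, since both genes were called lower at an earlier time and higher at 24 h. NCL was at 627, 585 and 623 CPM untreated, 734, 723 and 739 with dimerizer, 531, 523 and 494 with thapsigargin and 430.1, 409 and 457 with arsenite at 24 h, yet its mean dimerizer effect was 0.03 and the only one of the 48 not called (edgeR adjusted p = 0.0885). NPM1 was at 1188, 1134 and 1196 CPM untreated, 1379, 1419 and 1414 with dimerizer, 962, 946 and 882 with thapsigargin and 1455, 1432 and 1554 with arsenite. Its mean effects were 0.05, -0.23 and -0.18, and under arsenite it went from -0.30 at 16 h to 0.34 at 24 h. NPM1 has 45 pseudogene models in the tables, so its counts are uncertain.

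**Figure D3:**
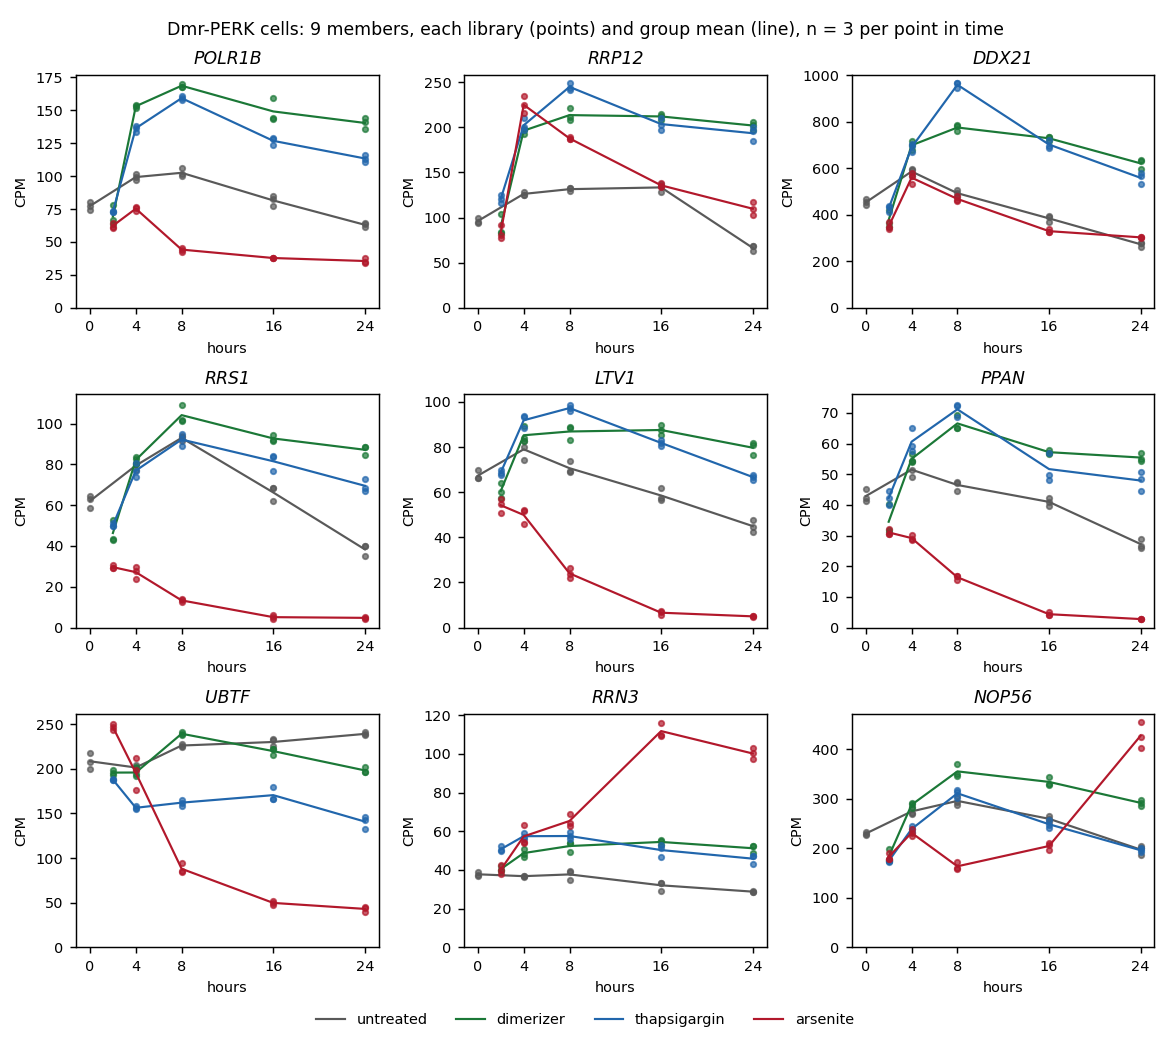
CPM (y) by hour (x) of 9 of the genes in Dmr-PERK cells, each library as a point and the group mean as a line, for untreated, dimerizer, thapsigargin and arsenite wells. POLR1B, RRP12 and DDX21 stay high with dimerizer while untreated levels fall, RRS1, LTV1 and PPAN approach 0 with arsenite, UBTF falls and RRN3 rises with arsenite, and NOP56 rises between 16 and 24 h with arsenite.

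No untreated wells were collected at 2 h. Against those of 0 h, most of these genes were lower after 2 h of arsenite in Dmr-PERK cells. Such a fall was not particular to arsenite: dimerizer and thapsigargin gave 36 and 23 lower genes there (9.13% and 15.0% of all genes). Compared directly at 2 h, 9 genes were higher and 1 lower with dimerizer than with arsenite (4.92% and 5.08% of all genes). The arsenite course against untreated wells ran as follows. At 2 h 1 was higher and 39 lower (10.5% and 9.46% of all genes; median -0.28), with the highest UBTF (0.24) and the lowest RRS1 (-1.07), TAF1D (-0.57) and MYBBP1A (-0.56). At 4 h 8 were higher and 32 lower (24.4% and 24.7% of all genes; median -0.25), with the highest RRP12 (0.83), RRN3 (0.64) and DDX10 (0.52) and the lowest RRS1 (-1.54), POLR1C (-1.37) and TAF1D (-0.89). Without replicate 3, the library named above, arsenite at 4 h gave 6 higher and 34 lower genes with a median of -0.27, and the mean over 4 to 24 h gave 7 higher and 40 lower with a median of -0.60. RRS1, the 60S factor that carries the 5S particle, led the falls at both times. At 8 h 5 were higher and 41 lower (36.2% and 31.2% of all genes; median -0.74), with the highest RRN3 (0.79), DDX10 (0.52) and RRP12 (0.51) and the lowest RRS1 (-2.79), POLR1C (-2.29) and NOP2 (-1.74). At 16 h 5 were higher and 42 lower (42.5% and 36.3% of all genes; median -0.93), with the highest RRN3 (1.80), RRP8 (1.41) and NOP58 (0.72) and the lowest RRS1 (-3.72), PPAN (-3.25) and LTV1 (-3.14). RRN3 was the highest and RRS1 the lowest at 8 and at 16 h. At 24 h 11 were higher and 33 lower (43.3% and 38.2% of all genes; median -0.45), with the highest RRN3 (1.80), NOP58 (1.17) and RRP8 (1.16) and the lowest PPAN (-3.30), LTV1 (-3.20) and RRS1 (-3.02). The effect changed between 4 and 24 h for 45 of the 48 genes (edgeR F-test, 71.2% of all genes).

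Dimerizer and arsenite wells were also compared directly, without the untreated wells. As the set was chosen with this contrast already seen, the comparison gives its size and time course and no independent support. Over the 5 times 44 of the 48 were higher with dimerizer and 3 were lower (37.8% and 42.6% of all genes), with a median log2 difference of 0.83 against -0.12 for all genes. The gap was widest for RRS1 (2.72), PPAN (2.23) and LTV1 (2.10); the genes higher with arsenite were RRN3 (-0.51), NOP58 (-0.28) and NOP10 (-0.18). By time the counts of higher and lower genes were 9 and 1 at 2 h (4.92% and 5.08%; median 0.08), 39 and 4 at 4 h (23.6% and 23.9%; median 0.40), 44 and 3 at 8 h (31.5% and 36.7%; median 1.09), 44 and 3 at 16 h (35.9% and 43.4%; median 1.40) and 42 and 5 at 24 h (38.0% and 43.6%; median 1.23). Most of the 48 genes were thus not called different at 2 h, where leaving out 1 replicate of each group gave 3 to 20 higher genes, and 43 were called at 4 h.

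**Figure D4:**
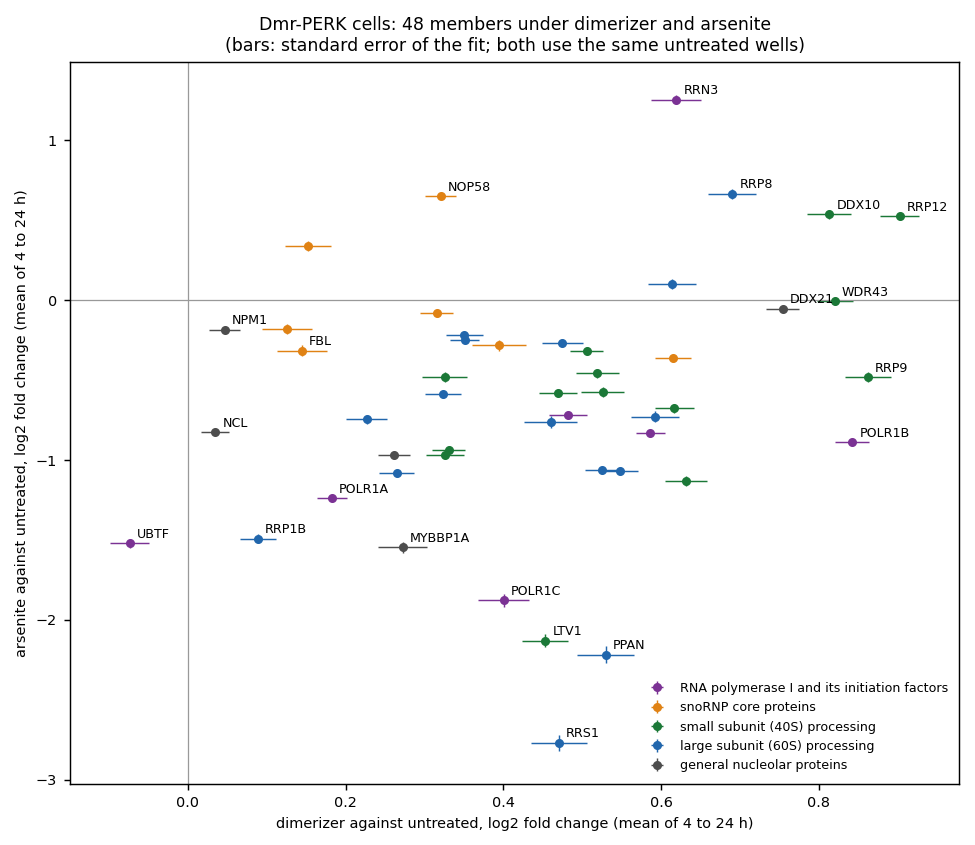
Log2 fold change against untreated (mean of 4 to 24 h, bars 1 standard error) of the 48 genes in Dmr-PERK cells with dimerizer (x) and arsenite (y), coloured by role; both axes use the same untreated wells, and no relation is read from them. Most points lie right of 0 and below 0, RRN3 lies highest at 1.26 on the arsenite axis, RRS1 lowest at -2.77, and UBTF is the point left of 0.

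Thapsigargin also raised most of these genes and lowered a set of them. Its median effect over 4 to 24 h was 0.31, against 0.46 with dimerizer. At 8 h the order was the other way, with 0.43 against 0.29. The highest effects in Dmr-PERK cells were RRP12 (0.93), DDX10 (0.90) and GNL3 (0.86), and the lowest were UBTF (-0.51), RRP1B (-0.31) and FBL (-0.26). At 2 h 7 were higher and 23 lower (18.2% and 15.0% of all genes; median -0.10), with the highest RRP8 (0.50), RRN3 (0.42) and TAF1D (0.33) and the lowest NIP7 (-0.53), NOP56 (-0.40) and FBL (-0.38). The 2 h count of lower genes was 39 against untreated wells of 4 h and 13 by limma on log2(TPM + 1). At 4 h 25 were higher and 10 lower (19.7% and 19.9% of all genes; median 0.12), with the highest RRP12 (0.68), RRN3 (0.65) and WDR43 (0.64) and the lowest UBTF (-0.37), FBL (-0.36) and NHP2 (-0.33). RRN3 was among the 3 highest at both times, and FBL among the 3 lowest. At 8 h 32 were higher and 4 lower (25.6% and 23.8% of all genes; median 0.43), with the highest GNL3 (1.05), DDX21 (0.96) and TAF1D (0.96) and the lowest UBTF (-0.48), RRP1B (-0.44) and FBL (-0.17). At 16 h 34 were higher and 8 lower (25.3% and 26.2% of all genes; median 0.30), with the highest DDX10 (1.02), DDX21 (0.87) and GNL3 (0.86) and the lowest UTP20 (-0.47), UBTF (-0.43) and RRP1B (-0.37). UBTF and RRP1B, which were low at 8 h, were low at 16 h too. At 24 h 41 were higher and 5 lower (27.5% and 27.5% of all genes; median 0.48), with the highest RRP12 (1.54), DDX10 (1.37) and GNL3 (1.09) and the lowest UBTF (-0.77), NPM1 (-0.34) and FBL (-0.27). The effect changed between 4 and 24 h for 45 of the 48 genes (edgeR F-test, 52.2% of all genes). Compared directly over 5 times, 31 genes were higher with dimerizer than with thapsigargin and 8 lower (26.2% and 20.9% of all genes; median 0.10), and 18 were higher by limma on log2(TPM + 1). The former were led by UBTF (0.36), FBL (0.35) and BOP1 (0.33), and the latter by GNL3 (-0.33), DDX18 (-0.14) and DDX10 (-0.12). Against arsenite, thapsigargin wells were higher for 41 genes and lower for 5 (37.3% and 43.5%; median 0.72), with the widest gaps for RRS1 (2.59), PPAN (2.26) and LTV1 (2.12).

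Most of the 48 genes rose with thapsigargin and fell with arsenite in Parental cells too. With thapsigargin 38 of the 48 genes were higher and 7 lower (30.1% and 35.0% of all genes; median 0.31), with the highest GNL3 (1.21), DDX21 (1.00) and RRP12 (0.89) and the lowest UBTF (-0.66), RRP1B (-0.25) and BOP1 (-0.20). With arsenite 9 of the 48 genes were higher and 39 lower (42.7% and 39.4%; median -0.56), with the lowest RRS1 (-1.96), LTV1 (-1.81) and PPAN (-1.65) and the highest RRN3 (1.13), NOP58 (0.75) and NOP10 (0.61). Thapsigargin wells exceeded arsenite wells for 43 genes and were below them for 4 (36.9% and 42.3%; median 0.73), led by LTV1 (1.84), RRS1 (1.83) and GNL3 (1.80).

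In Parental cells the thapsigargin course ran as follows. At 2 h 12 were higher and 15 lower (16.6% and 12.6% of all genes; median -0.05), with the highest RRN3 (0.57), RRP8 (0.39) and TAF1D (0.38) and the lowest NIP7 (-0.43), NOP56 (-0.38) and MYBBP1A (-0.33). Against untreated wells of 4 h, 37 were lower at 2 h, and without replicate 1 of each group 8 were. At 4 h 30 were higher and 6 lower (20.9% and 19.7% of all genes; median 0.18), with the highest WDR43 (0.68), GNL3 (0.66) and RRN3 (0.64) and the lowest UBTF (-0.36), RRP1B (-0.21) and BOP1 (-0.20). At 8 h 35 were higher and 3 lower (24.4% and 25.3% of all genes; median 0.44), with the highest GNL3 (1.26), DDX21 (1.17) and WDR43 (1.00) and the lowest UBTF (-0.80), RRP1B (-0.30) and POLR1A (-0.10). UBTF was the lowest at 4 and 8 h, as it was in Dmr-PERK cells. At 16 h 35 were higher and 7 lower (26.7% and 29.5% of all genes; median 0.33), with the highest GNL3 (1.47), DDX21 (1.19) and RRP9 (0.93) and the lowest UBTF (-0.79), RRP1B (-0.33) and NOP56 (-0.26). At 24 h 40 were higher and 7 lower (26.8% and 27.9% of all genes; median 0.36), with the highest GNL3 (1.44), RRP12 (1.35) and DDX21 (1.17) and the lowest UBTF (-0.70), BOP1 (-0.41) and FBL (-0.27). GNL3 was among the 3 highest at each time from 4 h on. The arsenite course in Parental cells began with falls against untreated wells of 0 h as well. At 2 h 3 were higher and 25 lower (10.5% and 7.96% of all genes; median -0.14), with the highest UBTF (0.42), DDX10 (0.24) and RRN3 (0.22) and the lowest RRS1 (-0.73), TAF1D (-0.63) and POLR1C (-0.50). Leaving out replicate 1 or 2 of each group gave 16 or 12 lower genes at 2 h, and untreated wells of 4 h as the reference gave 43. At 4 h 4 were higher and 36 lower (24.1% and 25.1% of all genes; median -0.34), with the highest RRP12 (0.45), RRN3 (0.45) and NOP58 (0.42) and the lowest POLR1C (-1.42), RRS1 (-1.30) and TAF1D (-0.97). UBTF, higher at 2 h, was not among the highest at 4 h. At 8 h 5 were higher and 41 lower (30.6% and 29.6% of all genes; median -0.57), with the highest RRN3 (0.66), NOP58 (0.55) and RRP12 (0.55) and the lowest RRS1 (-1.60), POLR1C (-1.34) and LTV1 (-1.21). At 16 h 5 were higher and 38 lower (41.6% and 37.2% of all genes; median -0.74), with the highest RRN3 (1.78), NOP58 (0.79) and RRP8 (0.76) and the lowest RRS1 (-3.02), LTV1 (-2.62) and PPAN (-2.41). RRN3 led the rises at 8 and 16 h. At 24 h 12 were higher and 34 lower (42.7% and 37.8% of all genes; median -0.56), with the highest RRN3 (1.64), NOP56 (1.39) and NOP10 (1.24) and the lowest LTV1 (-2.59), UBTF (-2.30) and POLR1A (-2.13). Without replicate 3, the library that stands apart, arsenite at 24 h gave 10 higher and 35 lower genes with a median of -0.65, and the mean over 4 to 24 h gave 8 higher and 39 lower with a median of -0.60.

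The lines differed in the size of the arsenite effect for 33 of the 48 genes (12 with a higher and 21 with a lower effect in Dmr-PERK; 23.5% and 18.7% of all genes) and of the thapsigargin effect for 18 (6 and 12; 11.3% and 14.4%; by limma on log2(TPM + 1) the thapsigargin counts were 10 and 6). For arsenite the differences were led by DDX10 (0.93), RRP8 (0.31) and UTP20 (0.19) on one side and RRS1 (-0.81), NOP2 (-0.68) and PPAN (-0.56) on the other. DDX10, NOP56 and DDX21 had called effects of opposite sign in the lines, but the sign depended on the scaling. For NOP56 and DDX21 it did so in both lines: with RLE scaling the Dmr-PERK effects were 0.03 and 0.06, and on log2(TPM + 1) the Parental effects were -0.06 and -0.25. For DDX10 the Parental effect was 0.11 on log2(TPM + 1). For DDX10 at 24 h, Dmr-PERK wells were at 51.3, 44.1 and 50.3 CPM untreated and 71.0, 70.0 and 74.6 with arsenite, and Parental wells at 46.3, 45.6 and 42.4 untreated and 31.3, 33.1 and 41.0 with arsenite. Its effects were 0.54 ± 0.029 SE and -0.39 ± 0.031 SE, and the difference between lines was 0.93 ± 0.042 SE (edgeR adjusted p = 1.02e-35), or 1.28 on log2(TPM + 1). NOP56 had -0.08 in Dmr-PERK and 0.27 in Parental cells, DDX21 had -0.05 and 0.04, and RRS1 fell further in Dmr-PERK (-2.77) than in Parental cells (-1.96). For thapsigargin the differences were led by DDX10 (0.42), PPAN (0.24) and UBTF (0.15) and by GNL3 (-0.35), NOP58 (-0.24) and NCL (-0.23). In Parental arsenite wells at 24 h RRS1 was at 6.86, 7.66 and 14.8 CPM and LTV1 at 5.31, 5.25 and 11.7; the library that stands apart is the third of each, and without it the line difference of RRS1 was -0.71 and that of PPAN -0.44. It lies closer to untreated wells (34.7, 39.3 and 36.1 and 43.2, 44.9 and 42.9 CPM).

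**Figure D5:**
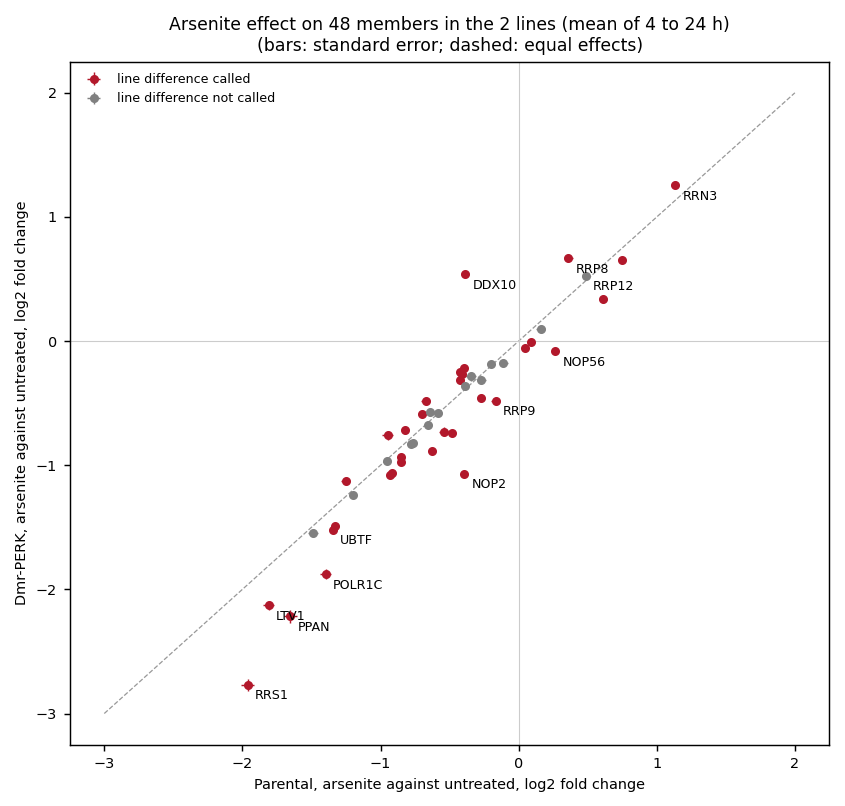
Log2 fold change of arsenite against untreated (mean of 4 to 24 h, bars 1 standard error) of the 48 genes in Parental (x) and Dmr-PERK cells (y), with the line of equal effects dashed and genes whose difference between lines was called in red. DDX10 lies above the dashed line with opposite signs in the lines on this scale (its Parental effect was 0.11 on log2(TPM + 1)), and RRS1, NOP2 and PPAN lie furthest below it.

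Other genes of the pathway were counted from fixed lists for comparison. Of all tested genes 27.5% were higher and 27.7% lower with dimerizer, and 44.4% and 39.2% with arsenite, and the counts of each list below stand beside these shares. Of 82 further ribosome biogenesis factors, in Dmr-PERK cells in the mean of 4 to 24 h, dimerizer gave 70 higher and 7 lower (median 0.32) and arsenite 19 higher and 56 lower (median -0.27). Those with the smallest adjusted p were NOC3L (0.87), PDCD11 (0.76) and UTP4 (0.69) with dimerizer and IMP3 (-2.40), EXOSC6 (1.66) and EXOSC2 (-1.39) with arsenite. NOC3L, PDCD11 and UTP4 are assembly factors, IMP3 is a U3 snoRNP protein, and EXOSC6 and EXOSC2 are subunits of the RNA exosome. Of 14 other polymerase I subunits and SL1 proteins, dimerizer gave 8 higher and 5 lower and arsenite 1 higher and 11 lower, with TAF1A (0.99), ZNRD1 (0.72) and POLR2L (-0.60) leading for dimerizer and TAF1C (-1.23), CD3EAP (-2.26) and POLR2H (-1.24) for arsenite.

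RNA polymerase III, which makes 5S and transfer RNAs, and its factors (22 genes) had 14 higher and 4 lower with dimerizer (median 0.19) and 5 higher and 14 lower with arsenite (median -0.39), beside 27.5% and 27.7% of all genes with dimerizer and 44.4% and 39.2% with arsenite, which is the background of the next 2 lists too. The leading genes were POLR3C (0.96), POLR3D (0.89) and POLR3E (0.66) with dimerizer and GTF3C1 (-1.36), GTF3C2 (-1.59) and GTF3C3 (1.76) with arsenite, where subunits of the same TFIIIC factor moved in opposite directions. The 7 subunits particular to RNA polymerase II gave 3 higher and 3 lower with dimerizer and 1 higher and 6 lower with arsenite, with POLR2D (0.23), POLR2A (-0.33) and POLR2B (-0.17) and POLR2A (-1.31), POLR2D (-0.66) and POLR2B (-0.54) respectively. In the MYC network (12 genes) dimerizer gave 7 higher and 3 lower and arsenite 3 higher and 6 lower. MYC itself had 1.69 with dimerizer, 1.49 with thapsigargin and -0.20 with arsenite in Dmr-PERK cells, and 0.00041, 1.59 and 0.60 in that order in Parental cells, while MXD1, which opposes MYC by binding MAX, had 2.65, 3.72 and 4.34 in Dmr-PERK cells. MAX had 0.66 with dimerizer, and MNT, another MAX partner, had -1.42 with arsenite. The part of these transcripts in the changes of the 48 genes was not tested.

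The response panel checked the treatments. In Dmr-PERK cells dimerizer raised ATF4 (1.06), DDIT3 (3.15), ASNS (2.32) and TRIB3 (3.46), which are genes of the integrated stress response. Arsenite raised these as well (1.60, 5.07, 1.80 and 4.82), together with HMOX1, an oxidative stress gene (8.81). Thapsigargin raised HSPA5, the chaperone of the endoplasmic reticulum (3.64). The gene of PERK, EIF2AK3, was at 964 ± 43.3 CPM (SD, n = 12 libraries) in untreated Dmr-PERK and 29.7 ± 6.03 CPM (SD, n = 12 libraries) in untreated Parental wells of 4 to 24 h. Reads of the construct and of the cells' own gene cannot be told apart there, so no effect of the agents on it is given.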

How the data were processed

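RNA was measured in 120 libraries of U2OS cells, 40 groups of 3 wells, prepared per the labels' protocols from total RNA with a directional kit and sequenced on a NovaSeq. The authors deposited estimated counts and TPM per gene, made with Salmon 0.9.1 on GRCh38 after FastQC 0.11.5, per the submitters' processing notes. The annotation and the use of strand are not given in the sources used here. Of the non-zero deposited estimated counts, 49.5% were whole within 1e-05, and TPM values have a floor of 0.0631.

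Estimated counts were rounded and kept where filterByExpr passed (minimum count 10), which left 26998 of 57665 genes and all 48 described here. One model over all 120 libraries was fitted with edgeR 4.0.16 (R 4.3.3) by quasi-likelihood with TMM scaling (80 residual degrees of freedom, so that 3 libraries per group share 1 estimate of the spread). Genes were called at a Benjamini-Hochberg adjusted p under 0.05 over all tested genes; standard errors are the fold change divided by the root of F. Scaled factors ran from 0.839 to 1.17. Depth of 12869311 to 56504690 counts per library limits the precision of low genes more than that of these, and no molecular identifiers are stated. The test was checked on simulated counts. Members and lists were chosen with earlier results of these data known. All 48 genes may be named; library values were given for the genes with the largest and lowest effects of each role, the most abundant, and POLR1A, POLR1B, UBTF, RRN3, FBL, NPM1 and NCL, and elsewhere the 3 highest and 3 lowest called. Of 40 genes with a GENCODE 29 position, 6 overlap a gene on the same strand and 18 one on the other strand, so their counts could be shared. Alternatives were RLE scaling (as in DESeq2), library totals alone, DESeq2 1.42.0, no filter, limma 3.58.1 on log2(TPM + 1) and log2(TPM + 0.1), leaving out replicates, a replicate block and fits of subsets. Chosen after seeing the data were untreated wells of 4 h as the reference for 2 h, leaving out replicate 3 of Parental arsenite at 24 h or of Dmr-PERK arsenite at 4 h, and treated wells at 24 h against 4 h.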

Additional observations from a re-analysis of the deposited data

Results flagged for a closer look

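The response to an agent differed between Dmr-PERK and Parental cells by edgeR's test of the difference itself (adjusted p under 0.05) for 46 of the 48 genes with dimerizer, 18 with thapsigargin and 33 with arsenite. By direction, 45 were higher in Dmr-PERK and 1 lower with dimerizer, 6 and 12 with thapsigargin, and 12 and 21 with arsenite. Shares of all tested genes were 23.7% and 23.2%, 11.3% and 14.4%, and 23.5% and 18.7%, in that order. The higher counts with thapsigargin and arsenite lay near these shares. For arsenite the 4 genes furthest apart had differences in log2 fold change, Dmr-PERK minus Parental, of 0.93 for DDX10, -0.81 for RRS1, -0.68 for NOP2 and -0.56 for PPAN. On log2(TPM + 1) these were 1.28, -0.65, -0.55 and -0.40.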

How the results depend on the processing

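Of 809 counts of called genes under other settings, 778 lay within 1.5 times the reported one. By limma on log2(TPM + 1) and log2(TPM + 0.1) the counts were 18 and 17 lower for dimerizer at 2 h (36 reported), 13 and 12 lower for thapsigargin at 2 h (23), 3 and 2 lower for Parental dimerizer at 4 h (6), 6 and 6 lower for the line difference of thapsigargin (12), 18 and 17 higher for dimerizer against thapsigargin (31), 22 and 22 higher for untreated Parental wells from 0 to 4 h (39), and 11 and 11 higher for dimerizer wells from 4 to 24 h (20). Untreated Dmr-PERK wells from 0 to 4 h gave 24 with the smaller pseudocount (38). Genes higher with dimerizer than with arsenite at 2 h (9) were 20 with library totals alone, 15 on log2(TPM + 1) and 14 in a fit of the groups compared. With untreated wells of 4 h as the 2 h reference, chosen after seeing the data, 39 were lower with thapsigargin in Dmr-PERK cells, whereas Parental cells gave 37 with thapsigargin and 43 with arsenite (15 and 25 reported); with dimerizer 1 was higher and 42 lower there (0 and 0 reported). Without replicate 1, 2 or 3 of every group, the lower counts ranged from 1 to 8 for Parental dimerizer at 4 h, 8 to 14 for Parental thapsigargin at 2 h, 12 to 21 for Parental arsenite at 2 h and 15 to 32 for dimerizer at 2 h, and the higher counts of dimerizer against arsenite at 2 h from 3 to 20. The cause of these changes was not tested.

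Single genes turned sign. With RLE scaling and with DESeq2, in that order, the arsenite effects in Dmr-PERK cells were 0.032 and 0.032 for NOP56, 0.11 and 0.11 for WDR43 and 0.060 and 0.060 for DDX21, that of NHP2 in Parental cells 0.0018 and 0.0027, and RRP8 had -0.068 and -0.068 for dimerizer against arsenite. With library totals alone the arsenite effects were -0.0901 for RRP15 in Dmr-PERK and -0.096 for WDR43, -0.024 for RRP15 and -0.14 for DDX21 in Parental cells, and DDX21 had -0.0097 there with no filter. By limma on log2(TPM + 1) and log2(TPM + 0.1), arsenite effects were 0.30 and 0.30 for WDR43 and -0.043 and -0.045 for RRP15 in Dmr-PERK cells. In Parental cells they were -0.056 and -0.056 for NOP56, 0.11 and 0.11 for DDX10, -0.024 and -0.025 for RRP15 and -0.25 and -0.26 for DDX21, and POLR1A had 0.086 and 0.088 with thapsigargin. The line differences were 0.16 and 0.16 for WDR43 and 0.11 and 0.12 for WDR75 with arsenite, 0.018 and 0.021 for WDR43 with thapsigargin, and 0.077 for TAF1D with arsenite and the larger pseudocount. For dimerizer against arsenite NOP10 had 0.022 and 0.022 and DDX10 -0.052 and -0.052. On both TPM scales the members' median line difference of arsenite was 0.06 (reported -0.06).

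With a replicate block, 46 of the 48 genes were higher with dimerizer, 37 with thapsigargin, and 40 lower with arsenite in Dmr-PERK cells, and no count moved by over 1.5 times. The deviations gave little sign that the labels' numbers pair wells. Same-numbered libraries of different groups had a mean correlation of their deviations of 0.0038, against -0.0019 for others. For 45 of 120 libraries, the mean correlation with other groups was highest for their own number among the 3 numbers. Without replicate 3 of Parental arsenite at 24 h, 3 genes' calls were gained and 1 was lost among 480 effects, the last being DDX21 in Parental cells. Without replicate 3 of Dmr-PERK arsenite at 4 h 2 were gained and 3 lost, the last being DDX21 in Parental cells and the line differences of WDR75 and NOP14 with arsenite.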
